A study of Mus musculus with 4 samples.

Results

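Marker genes of Kupffer cells and other macrophages were followed in the livers of acetaminophen-treated mice. They were chosen by name as rows of the deposited expression table, and all 10 of the 10 names were found among its 54149 genes. The Utx KO mice were females with a liver-specific knockout of Utx, listed as Kdm6a, which encodes a demethylase of lysine 27 on histone H3. The WT mice were females matched to them for age and sex. Mice of both genotypes were adults of a C57BL/6 x 129S4/SvJae background. They were fasted for 16 h and then given 300 mg/kg acetaminophen (APAP) into the peritoneum, so no group shows the liver without the drug. Each genotype had 2 libraries, and each library held pooled liver RNA of 2 mice. Neither the driver of the deletion nor the time from dose to collection of the liver is stated in the labels.

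Kupffer cells are the resident macrophages of the liver and line its sinusoids, where they take up bacteria, dying cells and haemoglobin from the blood. They are kept alive by signals through the receptor for macrophage colony-stimulating factor. In acetaminophen injury, resident Kupffer cells become fewer and monocytes enter and mature into macrophages, which clear dead hepatocytes. Of the markers, Clec4f, Vsig4, Timd4, Cd163, Cd5l and Marco are used for resident Kupffer cells, while Adgre1, Csf1r, Cd68 and Mrc1 are found on macrophages more widely. In liver, Mrc1 is also made by sinusoidal endothelial cells.

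Levels are given as FPKM, which is read abundance corrected for the length of the gene and for the size of the library. Coordinates are those of the deposited table, on mm10 (GRCm38.p6). The libraries held 17804730 and 16330451 recovered reads for Utx KO, against 16580979 and 16669038 reads for WT. The albumin gene Alb, which marks hepatocytes, held 5.40% to 6.93% of a library's reads. Kdm6a was at 2.20 and 2.12 FPKM in Utx KO pools, against 3.40 and 3.85 FPKM in WT pools, a difference short of the threshold (limma adjusted p = 0.0715). Genes averaging 1 FPKM or more numbered 11900, and of these 374 were lower and 190 were higher in Utx KO at a limma adjusted p under 0.05. All 10 markers passed this filter on low values. Error and p-values refer to pools of mice, not to single animals.

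Cd163 was the marker that fell in Utx KO livers, with a log2 fold change of -0.80. The other 9 markers did not pass the test, and for each of them the values of the pools of one genotype overlapped those of the other. Of the 10 markers, 1 was called lower and 0 higher, where 3.14% of all tested genes were called lower, 1.6% higher and 4.74% in either direction. The median log2 fold change of the markers was -0.062, beside 0.013 over all genes tested, and was 0.21 without Utx KO replicate 1 and -0.33 without Utx KO replicate 2. In bulk liver RNA, fewer cells of a type and less RNA per cell cannot be told apart.

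Among the genes that bind cargo for uptake, Cd163 (ENSMUSG00000008845, chr6:124304656-124330527, plus strand) encodes the receptor for complexes of haemoglobin and haptoglobin. It was at 7.06 and 7.67 FPKM in Utx KO pools, against 14.2 and 12.3 FPKM in WT pools. Both Utx KO pools lay below both WT pools, a pattern without overlap that 29.9% of all tested genes also showed in this direction and 61.5% in either direction. The values rest on 687 and 718 reads in Utx KO and on 1313 and 1052 reads in WT. Cd163 averaged 7.36 ± 0.433 FPKM in Utx KO and 13.2 ± 1.39 FPKM in WT (SD, n = 2 pools each), 1.80-fold lower in Utx KO. On the log2 scale the difference was -0.80 with an SE of 0.12 and a 95% confidence interval of -1.13 to -0.47 (limma adjusted p = 0.0467). This call lies close to the threshold: it was lost when any 1 of the 4 libraries was left out, at limma adjusted p between 0.0857 and 0.160, and with limma on FPKM rescaled to the recovered reads (0.0754). In all, 8 of the 15 alternatives run lost the call, and the direction was lower in each of the 15.

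Marco (ENSMUSG00000026390, chr1:120474538-120505024, minus strand), a scavenger receptor that binds bacteria and modified lipoproteins, varied most between pools. It was at 6.03 and 34.2 FPKM in Utx KO pools, against 47.3 and 19.3 FPKM in WT pools. The lowest of the 4 values was Utx KO replicate 1, and Utx KO replicate 2 lay between the WT pools. The log2 difference of Marco was -1.03, with an SE of 0.90 and a 95% confidence interval of -3.42 to 1.35 (limma adjusted p = 0.503). Cd5l (ENSMUSG00000015854, chr3:87357881-87371073, plus strand), a secreted protein that macrophages make and that inhibits apoptosis, had the highest mean level of the 10. It was at 47.7 and 76.2 FPKM in Utx KO pools, against 66.0 and 49.9 FPKM in WT pools. Its WT values lay inside the range of the Utx KO values, and its log2 fold change was 0.071 (SE 0.28, limma adjusted p = 0.892).

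Clec4f (ENSMUSG00000014542, chr6:83644542-83656187, minus strand), a lectin that in mice is made almost only by Kupffer cells and binds sugars with terminal galactose, did not pass. It was at 33.3 and 45.3 FPKM in Utx KO pools, against 45.3 and 32.2 FPKM in WT pools. One pool of each genotype was high and the other low, so the groups overlapped nearly in full. The log2 fold change was 0.025 (95% confidence interval -0.60 to 0.65, limma adjusted p = 0.957). Vsig4 (ENSMUSG00000044206, chrX:96247203-96293438, minus strand) encodes a complement receptor that captures particles coated with C3 fragments. It was at 18.4 and 27.6 FPKM in Utx KO pools, against 29.7 and 22.4 FPKM in WT pools (log2 fold change -0.19, SE 0.25, limma adjusted p = 0.663). The highest value was a WT pool and the lowest a Utx KO pool, with the other two between them. Timd4 (ENSMUSG00000055546, chr11:46810800-46844332, plus strand), a receptor for phosphatidylserine on dying cells, was the lowest of the 10. It was at 1.24 and 2.98 FPKM in Utx KO pools, against 2.31 and 2.08 FPKM in WT pools, and rests on 48 and 111 reads in Utx KO and on 85 and 71 reads in WT. Its log2 fold change was -0.13 (SE 0.36, limma adjusted p = 0.841), with both WT pools inside the Utx KO range.

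**Figure D1:**
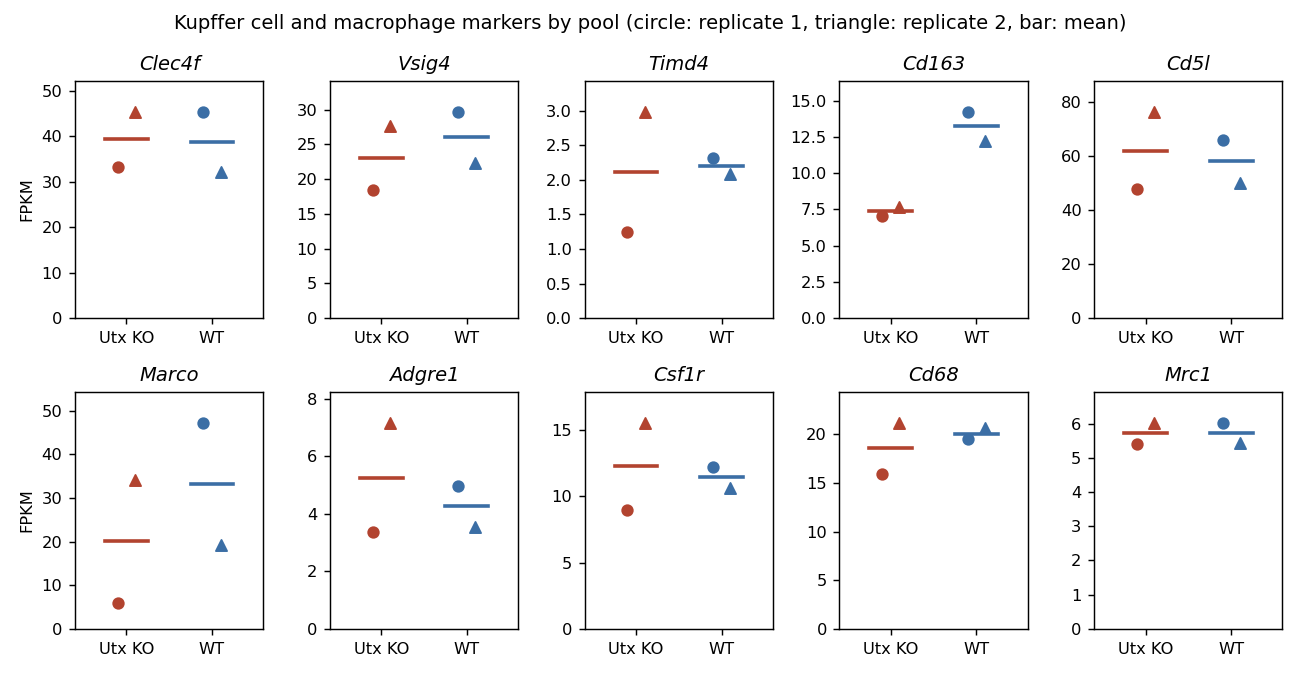
FPKM of the 10 markers (vertical axes from 0, one scale per gene) in the Utx KO pools at the left and the WT pools at the right of each panel; circles are replicate 1, triangles replicate 2 and bars the group mean. Cd163 is the marker whose Utx KO pools, at 7.06 and 7.67 FPKM, both lie below the WT pools, at 14.2 and 12.3 FPKM.

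The markers found on macrophages more widely had log2 fold changes between -0.12 and 0.21, and 0 of 4 passed by limma, adjusted or unadjusted. Csf1r (ENSMUSG00000024621, chr18:61105572-61132149, plus strand), the receptor for the growth factors CSF1 and IL-34, was at 8.93 and 15.5 FPKM in Utx KO pools, against 12.2 and 10.6 FPKM in WT pools. Its WT values lay within the Utx KO range (log2 fold change 0.050, SE 0.28, limma adjusted p = 0.925). Adgre1 (ENSMUSG00000004730, chr17:57358686-57483529, plus strand), the gene of the F4/80 antigen, was at 3.35 and 7.17 FPKM in Utx KO pools, against 4.98 and 3.55 FPKM in WT pools. It showed the same order of pools, and its log2 difference was 0.21 (SE 0.37, limma adjusted p = 0.752). Cd68 (ENSMUSG00000018774, chr11:69664213-69666153, minus strand), a glycoprotein of lysosomes, was at 16.0 and 21.2 FPKM in Utx KO pools, against 19.5 and 20.6 FPKM in WT pools (log2 fold change -0.12, SE 0.17, limma adjusted p = 0.674). The WT pools again lay between the Utx KO pools. Mrc1 (ENSMUSG00000026712, chr2:14229392-14332057, plus strand), the mannose receptor, had the narrowest range, at 5.41 and 6.02 FPKM in Utx KO pools, against 6.02 and 5.44 FPKM in WT pools. Its log2 fold change was -0.0032 with a 95% confidence interval of -0.32 to 0.31 (limma adjusted p = 0.990). Csf1r overlaps 871 bases of Hmgxb3 on the other strand, and strand marking of the libraries is not stated, so reads there cannot be assigned with certainty.

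**Figure D2:**
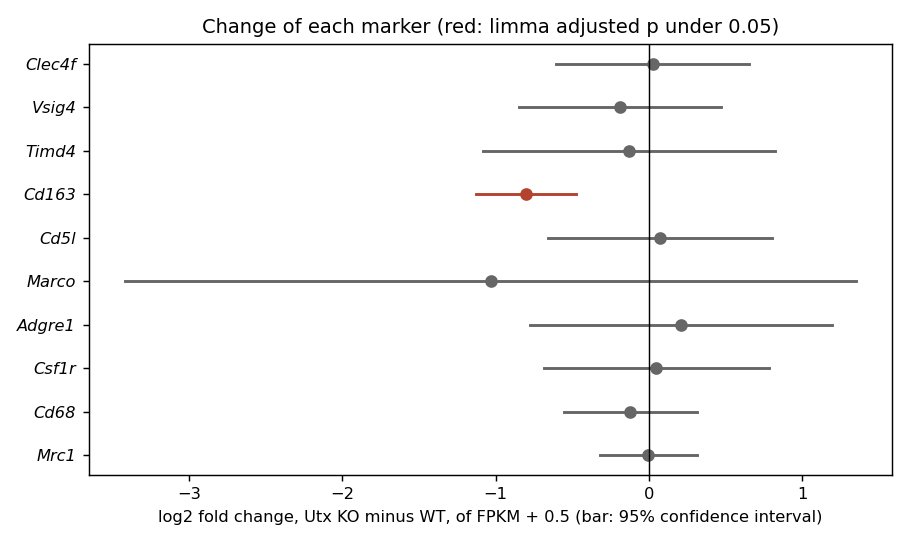
Log2 fold change of FPKM + 0.5, Utx KO minus WT (horizontal axis), for each marker, with 95% confidence intervals from limma; red marks an adjusted p under 0.05. Cd163, at -0.80, is the single red point, and the interval of Marco, -3.42 to 1.35, is the widest.

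By mean FPKM over the 4 libraries, a scale that allows for gene length, the order was Cd5l at 59.9, Clec4f at 39.0, Marco at 26.7, Vsig4 at 24.5, Cd68 at 19.3, Csf1r at 11.8, Cd163 at 10.3, Mrc1 at 5.72, Adgre1 at 4.76 and Timd4 at 2.15. Neighbours in this order whose ranges over the libraries were apart were Cd5l and Clec4f, Cd68 and Csf1r, Cd163 and Mrc1, and Adgre1 and Timd4. All other neighbours overlapped.

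The sequence just upstream of 4 markers is shown because they span the patterns above: Cd163 fell, Marco varied most between pools, and Vsig4 and Cd68 did not pass. RefSeq promoter sequence on GRCm38.p6 was matched for 8 of the 10 markers by symbol, and the 250 bases before the annotated start were searched on both strands. GAGGAA is a sequence bound by the macrophage factor PU.1, encoded by Spi1, and shorter or other forms of its site were not searched. TGANTCA is the site of AP-1. Capitals mark matches to either motif, and no matches of the 2 motifs overlap. The windows are chr6:124304401-124304650, plus strand for Cd163, chr1:120505025-120505274, minus strand for Marco, chrX:96293439-96293688, minus strand for Vsig4 and chr11:69666171-69666420, minus strand for Cd68, each written 5′ to 3′ along its gene.
Cd163: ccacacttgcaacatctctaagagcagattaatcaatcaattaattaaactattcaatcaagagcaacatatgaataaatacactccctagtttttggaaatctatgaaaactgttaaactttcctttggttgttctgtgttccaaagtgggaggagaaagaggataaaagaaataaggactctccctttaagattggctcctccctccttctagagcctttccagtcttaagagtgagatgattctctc
Marco: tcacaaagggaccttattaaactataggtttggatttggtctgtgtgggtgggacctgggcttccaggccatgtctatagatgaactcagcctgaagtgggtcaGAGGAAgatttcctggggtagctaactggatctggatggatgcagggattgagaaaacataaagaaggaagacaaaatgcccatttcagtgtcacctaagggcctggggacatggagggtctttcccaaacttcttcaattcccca
Vsig4: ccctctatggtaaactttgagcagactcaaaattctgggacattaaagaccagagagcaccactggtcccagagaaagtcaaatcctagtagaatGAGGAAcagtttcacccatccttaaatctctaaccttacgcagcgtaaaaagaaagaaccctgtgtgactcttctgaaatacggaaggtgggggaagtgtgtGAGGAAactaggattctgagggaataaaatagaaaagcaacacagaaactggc
Cd68: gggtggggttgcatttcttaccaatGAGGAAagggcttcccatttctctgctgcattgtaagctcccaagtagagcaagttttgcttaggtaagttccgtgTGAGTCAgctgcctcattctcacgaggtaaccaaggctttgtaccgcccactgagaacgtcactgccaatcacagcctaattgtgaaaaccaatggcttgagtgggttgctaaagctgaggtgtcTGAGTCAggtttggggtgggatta
GAGGAA was present upstream of 5 of the 8 markers, namely Vsig4, Cd5l, Marco, Cd68 and Mrc1, and in 23.3% of 32851 RefSeq promoter windows of the same length. Vsig4 held 2 matches, which begin 155 and 53 bases before the start, and Marco held 1, which begins 146 bases before it. TGANTCA was present upstream of 1 of the 8, Cd68, at 149 and 24 bases before the start, and in 6.75% of all windows. Neither motif was in the windows of Cd163, Clec4f and Timd4. A match describes the sequence and shows no binding.

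The pools of one genotype differed from each other in nearly all markers at once. In Utx KO, replicate 2 was above replicate 1 for 10 of 10 markers, where 51.2% of all tested genes were. The median log2 difference, replicate 2 over replicate 1, was 0.62 for the markers and 0.0079 for all tested genes. In WT, replicate 1 was above replicate 2 for 9 of 10 markers, against 47.9% of all tested genes, with medians of 0.30 and -0.013. Cd68 was the exception in WT. Both differences held together for 9 of 10 markers and for 29.2% of all tested genes. With FPKM rescaled to the recovered reads, 10 of 10 markers had each difference, beside 61.9% and 64.3% of all tested genes. No test was made of a single pool against another.

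Marco was 5.66 times as high in Utx KO replicate 2 as in replicate 1 (95% exact binomial interval 4.88 to 6.60, for counting error alone), and 2.45 times as high in WT replicate 1 as in replicate 2 (2.22 to 2.70). Timd4 and Adgre1 were 2.40 and 2.14 times as high in Utx KO replicate 2 as in replicate 1. Csf1r was 1.74 times as high (1.59 to 1.90) and Clec4f 1.36 times (1.27 to 1.46). Cd163 and Mrc1 differed least between the Utx KO pools, at ratios of 1.09 (0.977 to 1.21) and 1.11 (0.997 to 1.25), which is within counting error. Of 15 tested sinusoidal endothelial markers, 11 were also higher in Utx KO replicate 2, beside 51.2% of all tested genes. In WT, 11 of the 15 were higher in replicate 1, beside 47.9%. Hepatocyte markers ran the other way in the same pools. Of these, 1 of 12 was higher in Utx KO replicate 2 than in replicate 1, and 0 of 12 were higher in WT replicate 1 than in replicate 2. Their summed level was 51441 and 39637 FPKM in Utx KO, against 44966 and 56075 FPKM in WT. The part of hepatocyte RNA in the marker levels was not tested.

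**Figure D3:**
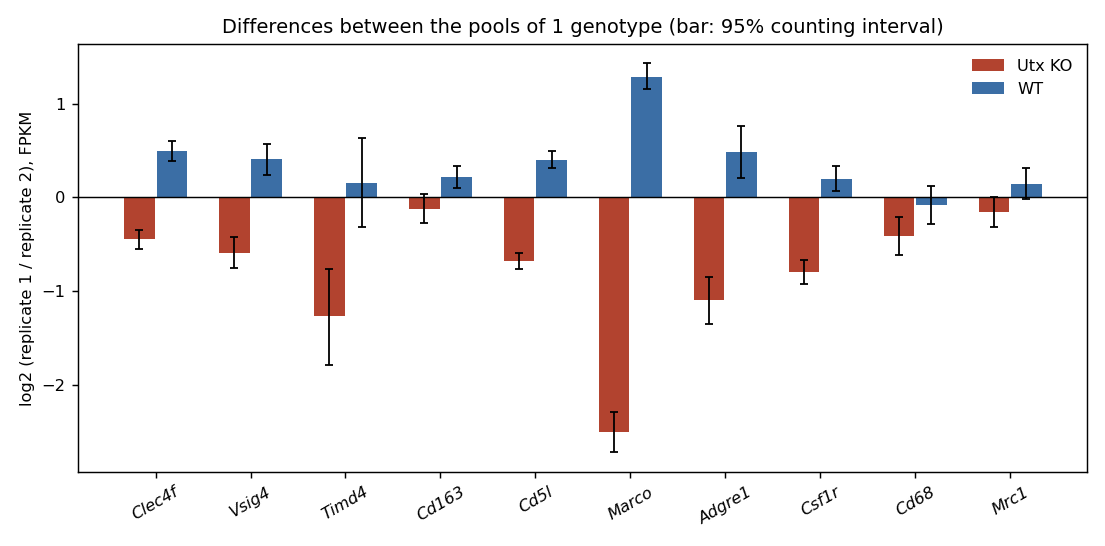
Log2 ratio of FPKM, replicate 1 over replicate 2 (vertical axis), for each marker within Utx KO (red, left bar) and within WT (blue, right bar); error bars are 95% exact binomial intervals for counting error. All 10 red bars point down, and 9 of the 10 blue bars point up.

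The proportions of the markers within a pool do not depend on how libraries are scaled. Cd163 was at 0.752 and 0.443 times the geometric mean of the other 9 markers in Utx KO pools, against 0.888 and 1.00 times in WT pools. Cd5l was at 6.28 and 5.69 times that of its other 9 in Utx KO, against 4.89 and 4.77 times in WT. Csf1r stood at 0.977 and 0.972 times in Utx KO, against 0.749 and 0.855 times in WT, and Adgre1 at 0.329 and 0.412 times in Utx KO, against 0.277 and 0.253 times in WT. These 4 markers of 10 had proportions that did not overlap between the genotypes, with Cd163 the lower one in Utx KO. Of all tested genes, 26.5% did not overlap when set against the geometric mean of the 10 markers. With Cd163 and Marco left out of the geometric mean, an alternative chosen after seeing the data, the lower Utx KO value of Csf1r was 0.888 times, against a higher WT value of 0.909 times, and Adgre1 was at 0.290 and 0.403 times in Utx KO, against 0.307 and 0.260 times in WT. Both then overlapped, so their separation rests on those 2 genes in the denominator. Cd163 was then at 0.712 and 0.483 times in Utx KO, against 1.02 and 1.06 times in WT. Cd5l and Vsig4 also did not overlap on that scale. The exact permutation test, two-sided, gives no p below 0.333 for 2 pools against 2, so it cannot separate the genotypes here. Marco was at 0.632 and 2.33 times in Utx KO, against 3.38 and 1.66 times in WT, which overlap.

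**Figure D4:**
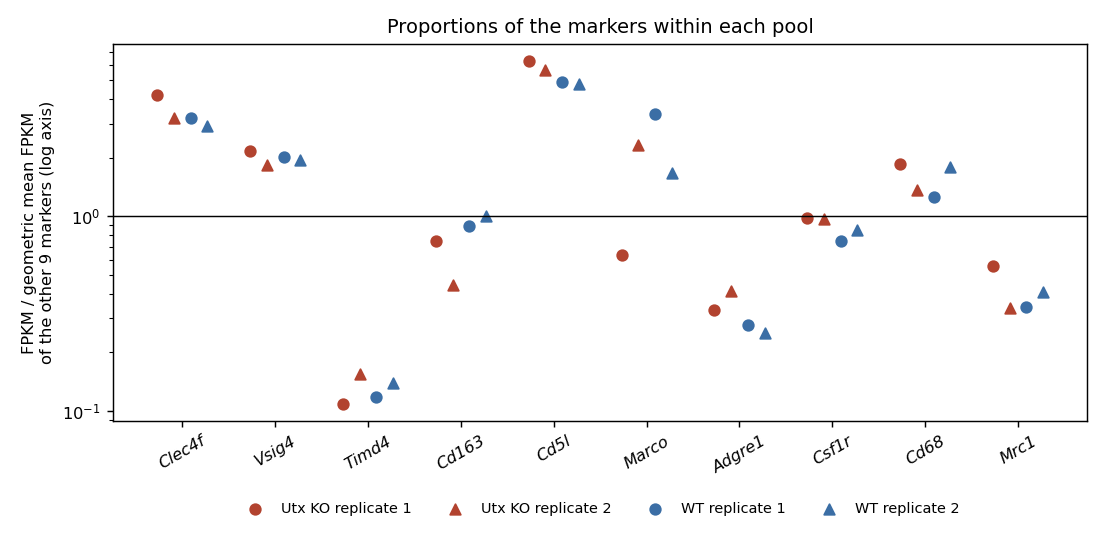
FPKM of each marker divided by the geometric mean FPKM of the other 9 markers in the same pool (vertical log axis), for Utx KO pools in red, left, and WT pools in blue, right, with circles for replicate 1 and triangles for replicate 2. Cd163 is lower in both Utx KO pools, at 0.752 and 0.443, than in the WT pools, at 0.888 and 1.00.

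Profiles over the 4 libraries were compared by the root mean square distance of centred log2(FPKM + 0.5) from the mean profile of the 10 markers. Among 6036 protein-coding genes averaging 5 FPKM or more, the 6 nearest were Lpl at 0.030, Sdc3 at 0.042, Tmsb4x at 0.051, C1qc at 0.052, Crybg3 at 0.053 and Rassf8 at 0.074. Lpl encodes lipoprotein lipase and C1qc a chain of complement C1q that macrophages make. Lpl was at 3.72 and 6.31 FPKM in Utx KO pools, against 6.67 and 5.01 FPKM in WT pools. Among the markers themselves, Vsig4 lay nearest to the mean profile, at 0.064, and Marco and Cd163 farthest, at 0.79 and 0.38. With 4 libraries this likeness is a description.

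Other genes of Kupffer cells and macrophages did not pass one by one. Of 18 further Kupffer cell genes, 17 were tested and 0 passed the limma test, with a median log2 fold change of -0.26. This median was -0.027 without Utx KO replicate 1. At an unadjusted limma p under 0.05 there were 7 of these 17, and 3226 of all 11900 genes. Id3, a regulator that Kupffer cells need for their identity, was at 70.2 and 70.8 FPKM in Utx KO pools, against 112 and 131 FPKM in WT pools (log2 fold change -0.77, limma adjusted p = 0.0518). Hmox1, which breaks down haem, was at 177 and 271 FPKM in Utx KO pools, against 459 and 821 FPKM in WT pools (limma adjusted p = 0.0933). Rxra, a partner of nuclear receptors, was at 101 and 82.8 FPKM in Utx KO pools, against 61.7 and 65.1 FPKM in WT pools (limma adjusted p = 0.107). Hepatocytes also express Hmox1 and Rxra, and the cell source of the Id3 RNA was not tested.

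Of 32 further genes of macrophages in general, 29 were tested and 0 passed the limma test. At an unadjusted limma p under 0.05 there were 6 of these 29, beside 3226 of all 11900 genes. The median log2 fold change was -0.23. It was -0.0027 without Utx KO replicate 1 and -0.50 without Utx KO replicate 2. In this list 13 genes were lower without overlap between the genotypes and 0 were higher, where 29.9% and 31.6% of all tested genes were. Cd14, a co-receptor for bacterial lipopolysaccharide, was at 37.2 and 54.2 FPKM in Utx KO pools, against 114 and 89.8 FPKM in WT pools (log2 fold change -1.16, limma adjusted p = 0.0663). Spi1, the gene of PU.1, was at 3.52 and 5.04 FPKM in Utx KO pools, against 6.76 and 6.65 FPKM in WT pools (limma adjusted p = 0.126). Maf, another factor of macrophages, was at 3.92 and 3.89 FPKM in Utx KO pools, against 5.35 and 5.37 FPKM in WT pools (limma adjusted p = 0.0971). Between the Utx KO pools, 28 of these 29 genes and 12 of the 17 Kupffer cell genes were higher in replicate 2, beside 51.2% of all tested genes. Between the WT pools, 21 of the 29 and 6 of the 17 were higher in replicate 1, beside 47.9% of all tested genes. Most of the further Kupffer cell genes thus did not share the WT difference of the markers. Sdc3, at 14.4 and 11.7 FPKM in WT replicates 1 and 2, was among those that did share it. Hmox1, Rxra and Id3 were higher in WT replicate 2. So were Cd207, at 6.10 and 7.23 FPKM in WT replicates 1 and 2, and Cxcl13, at 3.03 and 6.97 FPKM. Why these genes differed from the markers was not tested.

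Among signals that sustain or attract macrophages, 10 of 12 genes were tested, 2 fell and 0 rose, with a median of -0.37 that was -0.60 without Utx KO replicate 2. Bmp10, a ligand of stellate cells that acts on Kupffer cells and endothelium, fell to 1.28 ± 0.134 FPKM in Utx KO, against 2.94 ± 0.0132 FPKM in WT (SD, n = 2 pools each, limma adjusted p = 0.0478). Ccl2, which attracts monocytes, fell to 4.98 ± 0.00497 FPKM in Utx KO, against 7.86 ± 0.130 FPKM in WT (limma adjusted p = 0.0498). These calls were lost in 7 of 14 and 10 of 15 alternatives. The ligands of Csf1r did not pass: Csf1 was at 6.66 and 7.99 FPKM in Utx KO pools, against 9.14 and 8.16 FPKM in WT pools, and Il34 was at 2.03 and 2.56 FPKM in Utx KO pools, against 4.80 and 2.76 FPKM in WT pools (limma adjusted p = 0.342 and 0.258).

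Of 23 scavenger and engulfment genes outside the markers, 20 were tested, 2 rose and 0 fell, with a median of -0.24 that was -0.14 without Utx KO replicate 2 and -0.13 without WT replicate 1. Cd36, a fatty acid transporter and scavenger receptor, rose to 64.4 ± 1.27 FPKM in Utx KO, against 22.8 ± 0.592 FPKM in WT (SD, n = 2 pools each, limma adjusted p = 0.0258). Gas6, the bridging ligand of the receptors Mertk and Axl, rose to 69.4 ± 6.34 FPKM in Utx KO, against 20.3 ± 2.37 FPKM in WT (limma adjusted p = 0.0258). Of 12 genes of haemoglobin and haem clearance, the path that Cd163 opens, 0 passed the limma test and the median was 0.20. At an unadjusted limma p under 0.05 there were 5 of these 12, beside 3226 of all 11900 genes. Without overlap between the genotypes, 3 were lower and 8 higher, where 29.9% and 31.6% of all tested genes were. Hp, which encodes the haptoglobin that Cd163 binds in complex, was at 3264 and 2889 FPKM in Utx KO pools, against 1646 and 2586 FPKM in WT pools (limma adjusted p = 0.274). Lrp1, the receptor for haem bound to haemopexin, was at 64.5 and 51.3 FPKM in Utx KO pools, against 34.5 and 29.9 FPKM in WT pools (limma adjusted p = 0.0631). Hmox1, also in this list, was lower, at 177 and 271 FPKM in Utx KO pools, against 459 and 821 FPKM in WT pools (limma adjusted p = 0.0933).

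**Figure D5:**
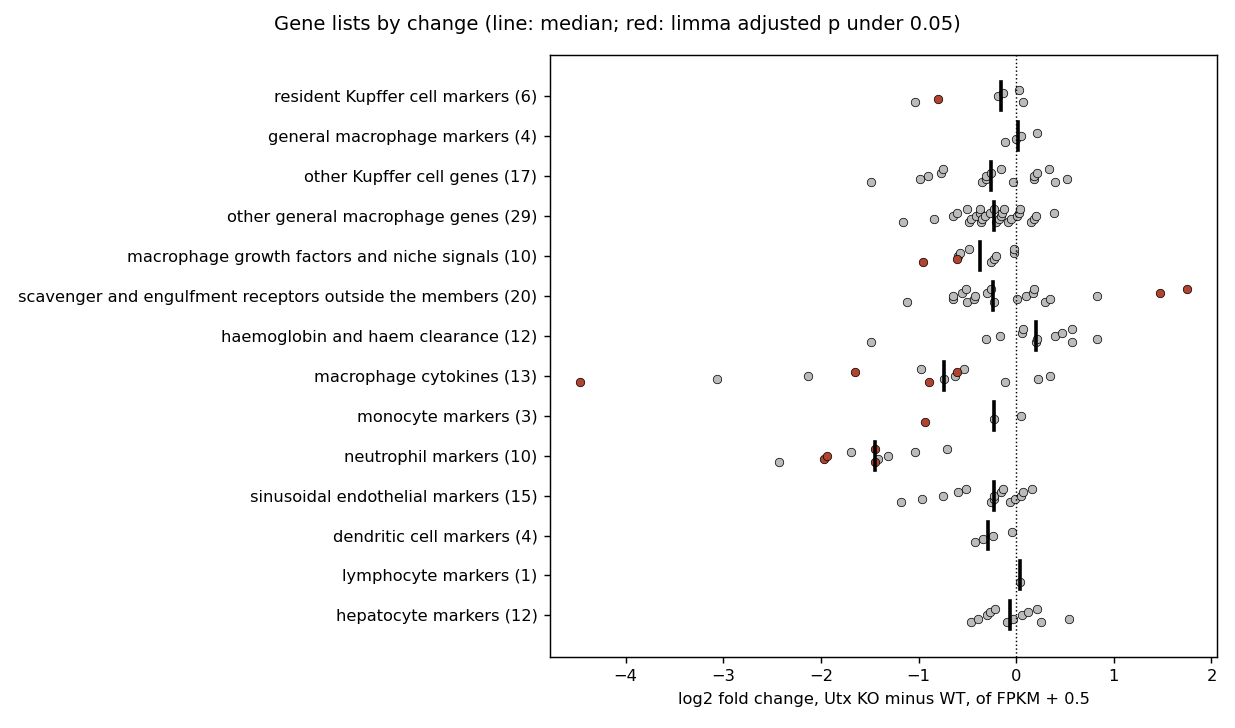
Log2 fold change of FPKM + 0.5, Utx KO minus WT (horizontal axis), of each tested gene of 14 lists, with the number tested in brackets; lines are list medians and red points have a limma adjusted p under 0.05. The resident Kupffer cell markers have 1 red point, Cd163, and the neutrophil markers the lowest median, -1.45.

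Cytokines and markers of other cell types were measured in the same pools. Of 19 cytokines listed for macrophages, 13 were tested, 4 fell and 0 rose (median -0.74). Besides Ccl2, these were Cxcl2, Ccl9 and Il1rn. Which cells made them in these livers was not tested. Cxcl2, which attracts neutrophils, fell to 0.723 ± 0.255 FPKM in Utx KO, against 26.7 ± 7.24 FPKM in WT (SD, n = 2 pools each, limma adjusted p = 0.0258). Ccl9, a chemokine, fell to 3.51 ± 0.150 FPKM in Utx KO, against 12.3 ± 2.52 FPKM in WT (limma adjusted p = 0.0298). Il1rn, the antagonist of the interleukin-1 receptor, fell to 2.43 ± 0.323 FPKM in Utx KO, against 4.95 ± 0.381 FPKM in WT (limma adjusted p = 0.0478). Of 15 neutrophil markers, 10 were tested, 4 fell and 0 rose (median -1.45), namely S100a8, S100a9, Clec4d and Mmp9. S100a9, a calcium-binding protein of neutrophils, fell to 17.8 and 16.1 FPKM in Utx KO pools, against 55.6 and 82.6 FPKM in WT pools (limma adjusted p = 0.0315). The summed level of the 15 neutrophil markers was 41.4 and 37.9 FPKM in Utx KO, against 123 and 188 FPKM in WT. Of 10 monocyte markers, 3 were tested and Ifitm6 fell, to 1.43 and 1.48 FPKM in Utx KO pools, against 3.46 and 3.02 FPKM in WT pools (limma adjusted p = 0.0475). In the same list the defining genes Ly6c2 and Ccr2 were under 1 FPKM in all 4 libraries and S100a4 was listed at 0 in all. The summed monocyte level was 16.6 and 17.5 FPKM in Utx KO, against 19.5 and 20.0 FPKM in WT. Of 17 sinusoidal endothelial markers, 15 were tested and 0 passed the limma test. At an unadjusted limma p under 0.05 there were 5 of these 15, beside 3226 of all 11900 genes. The endothelial list had a median of -0.22 and a summed level of 98.9 and 109 FPKM in Utx KO, against 140.4 and 127.7 FPKM in WT. That median was -0.079 without WT replicate 1 and -0.37 without WT replicate 2. Of 11 dendritic cell markers 4 were tested, of 14 lymphocyte markers 1 and of 12 hepatocyte markers 12, and 0 passed in each by limma, adjusted or unadjusted. The dendritic genes tested included H2-Aa, H2-Eb1 and Cd74, and the lymphocyte gene was Ighm. Which cells made this RNA was not tested. The medians of the dendritic, lymphocyte and hepatocyte lists were -0.29, 0.034 and -0.066, and each changed sign when 1 library was left out. Of the 12 genes called in the lists outside the markers, between 0 and 4 were called when 1 library was left out. The part of these cell types in the level of Cd163 was not tested.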

How the data were processed

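Gene expression in poly(A)-selected liver RNA was measured by RNA sequencing in 2 Utx KO and 2 WT pools. The authors deposited 1 table of FPKM (read abundance corrected for gene length and library size), with gene lengths and coordinates, per the file headers. The submitters' processing notes name HISAT2 2.0.5 and the builds mm10 and GRCm38.p6, while no source names the counting program. Whole reads were recovered from the steps between FPKM values and the deposited lengths, and 100.0% of values came out whole within 0.01 read. The library totals behind the FPKM were 1.00, 1.05, 1.02 and 0.943 times the recovered reads of Utx KO replicates 1 and 2 and WT replicates 1 and 2, so the deposited values carry a scaling that these reads do not show. Columns were matched to samples by genotype and replicate number.

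log2(FPKM + 0.5) was fitted with limma 3.58.1 in R 4.3.3 (eBayes with a mean-variance trend) for the 11900 genes that averaged 1 FPKM or more, with two-sided p-values adjusted by Benjamini-Hochberg over all of them. The fit had 2 residual and 2.59 prior degrees of freedom. Fold changes on this scale understate those of low genes. The markers, gene lists and tests were chosen with earlier results of these data known. Named genes were the 10 markers, Kdm6a, list genes past the threshold or else up to 3 with the smallest p, up to 4 of the highest in lists of other cell types, and the 6 nearest profiles. Csf1, Il34, Hp, Ly6c2, Ccr2 and S100a4 were named for their roles after their values were seen. Cd207 and Cxcl13 were named because of their WT values. In lists of cell types and cytokines fewer genes were named than that rule allows. Figures were drawn with matplotlib 3.10.9. Alternatives changed the pseudocount, filter, scaling, limma variant, genes tested and libraries, and used limma voom on recovered reads.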

Additional observations from a re-analysis of the deposited data

How the results depend on the processing

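The call of Cd163 was kept in 7 of 15 alternatives and its direction in all 15. It was lost with no filter on low values (log2 fold change -0.80, limma adjusted p = 0.120), with FPKM rescaled to recovered reads (-0.74, adjusted p = 0.0754), without a mean-variance trend (-0.80, adjusted p = 0.0656) and with a replicate block (-0.80, adjusted p = 0.0846), so that 0 of 10 markers were then called. Rescaling also turned Mrc1 to 0.056.

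Leaving out each library in turn called 0 markers and between 0 and 234 of all genes. The lone pool is then assumed to vary like the others. Over these fits the log2 fold change ranged from -0.22 to 0.27 for Clec4f, -0.48 to 0.099 for Vsig4, -0.63 to 0.37 for Timd4, -0.91 to -0.70 for Cd163, -0.26 to 0.41 for Cd5l, -2.24 to 0.17 for Marco, -0.29 to 0.70 for Adgre1, -0.33 to 0.43 for Csf1r, -0.32 to 0.079 for Cd68 and -0.075 to 0.069 for Mrc1. The median of the 10 markers ranged from -0.33 to 0.21. Of genes outside the markers, H2-Aa ranged from -0.73 to 0.26, H2-Eb1 from -0.69 to 0.015 and Ighm from -0.21 to 0.28. List medians ranged from -0.33 to -0.027 for further Kupffer cell genes, -0.50 to -0.0027 for general macrophage genes, -0.60 to -0.26 for niche signals, -0.37 to -0.079 for endothelial markers, -0.27 to 0.12 for hepatocyte markers, -0.27 to -0.19 for monocyte markers, -0.30 to -0.13 for scavenger and engulfment genes, 0.14 to 0.28 for haem clearance, -1.01 to -0.63 for cytokines, -1.82 to -1.26 for neutrophil markers and -0.71 to 0.14 for dendritic cell markers. The number of list genes called outside the markers, 12, ranged from 0 to 4. With a pseudocount of 0.1 or 1 the neutrophil median was -1.92 or -1.18.

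Of all genes, 564 were called, against 0 without a filter (4388 at an unadjusted limma p under 0.05), 280 without a trend, 1103 with limma voom, 1014 among protein-coding genes and 310 with a replicate block. Without WT replicate 2, 0 were called by limma (2662 at an unadjusted p under 0.05). Rescaling to recovered reads gave 255 lower and 211 higher. Same-numbered pools tended to deviate in opposite directions (Pearson r = -0.14 and Spearman rho = -0.24 across 11900 genes, which are not independent). Of the markers, 9 of 10 did so. The labels give no shared source for a number. Crossed numbers, chosen after seeing the data, gave 552 calls. The causes of these changes were not tested. With 48 reads in its lowest library, Timd4 is the marker that depth limits most.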
